A study of Canis lupus familiaris with 51 samples.

Results

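Chemokines and their receptors were examined in 51 canine cutaneous mast cell tumors, skin tumors of dogs made up of neoplastic mast cells. The set held every array probe whose gene name was CCL, CXCL, XCL, CX3CL, CCR, CXCR, XCR or CX3CR followed by a number, or IL8. This gave 37 genes on 49 probes, of 35619 gene names on 43603 probes. Of these genes, 9 had 2 or more probes, and each gene was represented by its probe with the highest mean level over the 51 arrays. No probe carried the name of CCL11, CCL22, CCR2, CXCR1, CXCR2, CXCR5, CXCR6, CX3CR1, CXCL9, CXCL11 or XCL1, so these genes were not measured here under those names. A further 13 probes were described as chemokine-related under other names and were not counted as members.

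Each array held the RNA of 1 tumor from 1 dog, labelled with a single dye. The study split the tumors by class. The reference tumors were 5 undifferentiated and 13 differentiated tumors chosen by their Patnaik and Kiupel grades, both read from histology, and by the mitotic index. The unknown tumors were 7 undifferentiated and 26 differentiated ones, whose class the study predicted from a small set of transcripts measured on these same arrays, none of them a chemokine or a chemokine receptor. The predicted class is therefore not independent of the arrays. Tumor LM0 was placed among the reference undifferentiated tumors by elimination, so the call counts and several reference differences are also given without it. The labels gave 19 males, 30 females and 2 dogs without a recorded sex, aged 3 to 14 years (49 dogs with an age), of several breeds. The tissue came from the centre of tumors that had arisen spontaneously, taken at surgery and kept in RNAlater, and no normal skin or purified mast cells were compared here.

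Chemokines are small secreted proteins that direct the migration of leukocytes. They bind receptors with a chain that crosses the membrane repeatedly and that signal through inhibitory G proteins, and most ligands share receptors with other ligands. Mast cells both secrete chemokines and respond to them, and eosinophils are a familiar companion of canine mast cell tumors, drawn mainly through the receptor CCR3.

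Probes of several member genes are printed here, because each gene level in the text is the brightness of one such 60-base stretch. Those of CXCR4 and CCL3, which also enter the results, are not shown. Capitals mark TGGGTCCAG, a 9-base run that was found in 4 of the member probes, all of CC ligands. The first lines show the CC ligands that carry it, the others show genes without it.

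CCL7: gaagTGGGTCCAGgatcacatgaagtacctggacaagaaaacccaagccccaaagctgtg
CCL13: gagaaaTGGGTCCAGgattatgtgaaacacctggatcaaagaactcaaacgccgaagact
CCL24: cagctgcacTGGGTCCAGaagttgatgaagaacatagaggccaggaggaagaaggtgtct
CCL4: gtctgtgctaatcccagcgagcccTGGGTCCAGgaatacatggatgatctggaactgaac
CCL26: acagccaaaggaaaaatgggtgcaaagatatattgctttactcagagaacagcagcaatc
CXCL12: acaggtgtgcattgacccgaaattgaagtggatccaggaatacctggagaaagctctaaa
IL8: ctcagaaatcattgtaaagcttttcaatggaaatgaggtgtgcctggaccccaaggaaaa
CCR3: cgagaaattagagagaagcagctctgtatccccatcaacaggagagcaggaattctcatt

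In the array's own annotation, whose genome build is not named in the files, these lay at chr9:42316310-42316369 (CCL7, minus strand), chr9:42260703-42260762 (CCL13, minus), chr6:10168501-10168560 (CCL24, minus), chr9:41001749-41001808 (CCL4, minus), chr6:10152525-10152584 (CCL26, minus), chr28:5896433-5896492 (CXCL12, plus), chr13:65374465-65374803 (IL8, plus, an interval of 339 bases for a 60-base probe) and chr20:45382096-45382155 (CCR3, minus). The probes shown for CCL24, CXCL12 and IL8 are not the brightest of their genes, and their values are given where they are used. Exon and UTR positions were not analysed here. The 9-base run was present in 8 of all 43603 probes (0.0183%), and its reverse complement CTGGACCCA was present in 16 (0.0367%), none of them a member. The longest run shared by probes of different member genes was 12 bases, between CCL13 and CCL7, and 10 of 1160 such pairs shared 10 bases or more.

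Between 59.4% and 74.8% of probes per array stood well above background, a flag set by the scanner software. Arrays correlated pairwise with r from 0.905 to 0.988. They lay on 15 slides scanned on 9 days, of which 10 slides and 7 days held both classes. The labelled tissue was checked against mast cell genes. The 5 of 10 listed mast cell markers that had a probe (KIT, the receptor for stem cell factor, MS4A2 and FCER1A, chains of the IgE receptor, CMA1, a protease of mast cell granules, and MITF, a transcription factor) were well above background on all 51 arrays.

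Chemokine levels varied widely between tumors. The SD over the 51 tumors had a median of 1.4 log2 units over the member probes and 0.496 over all probes. Of the 37 genes, 16 were well above background on all 51 arrays and 29 on at least 26. Among the probes that represent a gene the smallest SD was 0.266 for CCR7, the receptor that brings lymphocytes and dendritic cells to lymph nodes, which was well above background on 1 of 51 arrays. CCR9, a receptor of gut-homing T cells, was well above background on 0 of 51. The largest SD of these probes was 2.89 for CCL26, an attractant of eosinophils, which was well above background on 23 tumors and ranged from 2.01 to 11.78. Because these are whole tumors, fewer cells of a type and less RNA per cell cannot be told apart in any of the values below.

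The first comparison asked which chemokine genes differed between undifferentiated and differentiated reference tumors. CXCL12 fell and CCL7 rose in undifferentiated tumors, and no other gene passed the limits (limma, Benjamini-Hochberg adjusted p under 0.01 over all probes and at least 2-fold). These 2 of 37 genes stand beside 1.8% of all probes tested. In the unknown tumors CXCL12 fell again and IL8 rose, so 2 of 37 genes passed, beside 0.956% of all probes. With all 51 tumors fitted together, and reference or unknown as a term, 5 of 37 genes passed, beside 2.3% of all probes: CXCL12 was lower, and CCL7, IL8, CCL3 and CXCR4 were higher in undifferentiated tumors. This joint fit shares its arrays with the other comparisons and is no separate evidence. Without LM0 CCL7 alone passed in the reference tumors, and the same 5 genes passed in all tumors. At an adjusted p under 0.05 with no fold limit, the counts were 6 of 37 genes (7.55% of all probes) in the reference tumors, 4 (5.53%) in the unknown tumors and 9 (13.8%) in all tumors. The 6 genes in the reference tumors were CCL7, IL8 and CCL25, which were higher, and CXCL12, CXCL14 and CCL21, which were lower.

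Considered as a set, 23 of 37 genes had a higher mean in undifferentiated reference tumors and 14 a lower one. The median log2 difference was 0.16, and over all probes it was 0.03. Of all probes 45.8% were lower there. The unknown tumors gave the same numbers, 23 higher and 14 lower, with a median of 0.07 for the members and -0.04 for all probes. Of all probes 56.3% were lower in that set, so the same numbers stand beside unlike shares. The sign was the same in both sets for 25 of 37 genes, 17 of them higher and 8 lower, and for 56.1% of all probes. The test of whether the class difference itself differed between reference and unknown tumors called 0 of 37 genes (limma interaction term, adjusted p under 0.05, passed by 0.062% of all probes). At an unadjusted p under 0.05 it marked 2 genes, CCL25 and CCL21, and 13.5% of all probes. For CCL21 the difference was -3.34 in the reference tumors and 0.61 in the unknown tumors (interaction -3.94, SE 1.44, adjusted p = 0.231, limma). The other CCL21 probe gave -1.51 and 0.31 in these sets.

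**Figure D1:**
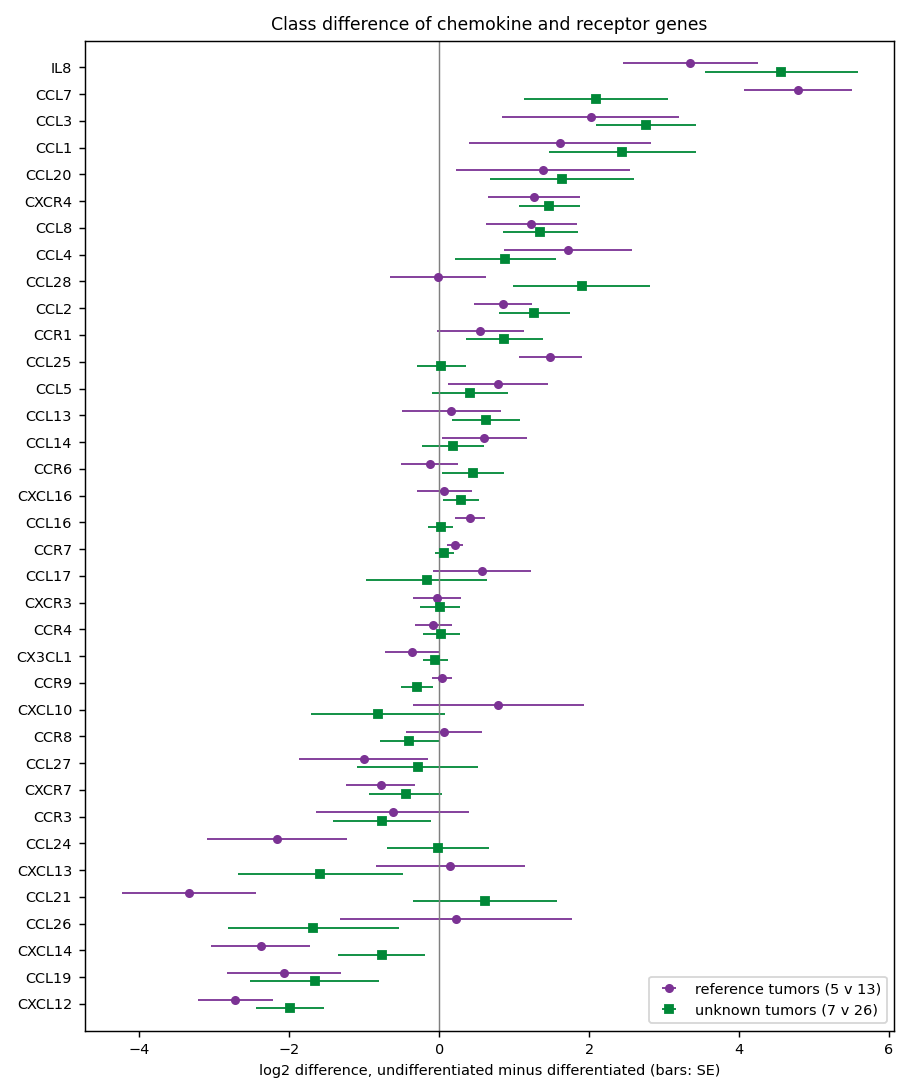
Log2 difference between undifferentiated and differentiated tumors for chemokine and receptor genes, with the standard error as a bar, for the reference tumors (circles, 5 against 13) and the unknown tumors (squares, 7 against 26). Genes with missing spots, the brightest IL8 probe plotted here among them, rest on fewer tumors. IL8 (3.35 and 4.56) lies to the right of 0 and CXCL12 (-2.72 and -1.99) to the left in both sets, CCL7 has the highest value in the reference tumors (4.79, against 2.09 in the unknown tumors), and CCL21 (-3.34 and 0.61) lies on opposite sides of 0.

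CXCL12, also known as SDF-1, is made largely by stromal cells and is the ligand of CXCR4 and of the scavenging receptor CXCR7. The 5 reference undifferentiated tumors had log2 levels of 11.36 (T9), 10.49 (T57), 9.59 (T73), 11.37 (T90) and 9.71 (LM0). The 13 reference differentiated tumors ranged from 11.06 through a median of 13.49 to 14.6. Undifferentiated tumors lay at the low end, and T9 and T90 exceeded only the lowest differentiated tumor, T130. The log2 difference was -2.72 (SE 0.497), 6.61-fold lower, with an adjusted p of 0.00291 in limma.

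Among unknown tumors CXCL12 ranged from 9.08 (T132) through 10.41 to 13.18 (T115) in the 7 undifferentiated ones and from 10.82 through 12.8 to 14.42 in the 26 differentiated ones. T77 (11.25), T80 (12.68) and T115 lay inside the differentiated range, while T49 (9.91), T104 (10.41), T114 (10.02) and T132 lay below it. The log2 difference was -1.99 (SE 0.454, adjusted p = 0.00708, limma), and over all 51 tumors it was -2.28 (SE 0.345, adjusted p = 3.02e-06, limma). The CXCL12 probe whose sequence is shown above had a difference of -2.41 in the reference tumors (adjusted p = 0.00336, limma), with every undifferentiated tumor (7.32 to 8.75) below every differentiated one (8.88 to 11.89). The same probe gave -1.47 in the unknown tumors and did not pass (adjusted p = 0.0519, limma). CXCL12 was lower in undifferentiated tumors on 9 of 10 slides that held both classes (median difference within a slide -2.85) and on 7 of 7 scan days.

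The CXCL12 difference in the reference tumors kept its size but missed the limit without T73 (-2.5, adjusted p = 0.0108) or without LM0 (-2.53, adjusted p = 0.0126). Among unknown tumors it missed the limit when T49 (-1.82, adjusted p = 0.0248), T77 (-2.05, 0.0106), T104 (-1.91, 0.018), T114 (-1.84, 0.0355) or T132 (-1.69, 0.0316) was left out, all from limma. With slide as a fixed term CXCL12 missed the limit in the reference tumors (-2.9, adjusted p = 0.185, limma) and in the unknown tumors (-2.24, 0.102). It passed the limit in all tumors (-2.54, 7.72e-05). With scan day as a fixed term CXCL12 gave -2.98 (0.0182) and -2.14 (0.047) in the reference and unknown tumors. Of the reference undifferentiated tumors only T73 and T90 shared a slide with reference differentiated ones. Every reference difference with slide as a fixed term therefore rests on T73 and T90.

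Stromal genes were read beside CXCL12. Of 8 fibroblast markers, 7 were lower in undifferentiated reference tumors and 2 in undifferentiated unknown tumors. Among them DCN, the matrix protein decorin, fell in the reference tumors (-1.45, adjusted p = 0.000388, limma). The mean fibroblast score (mean z-score of the markers) ranged from -1.61 to 0.91 in reference undifferentiated tumors and from -1.82 to 1.18 in reference differentiated ones, and over 51 tumors it correlated with CXCL12 with r = 0.41 and rho = 0.46 (adjusted permutation p = 0.0094 and 0.00334), r being 0.35 without T132 and T73. The part of stromal content in the CXCL12 result was not tested.

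CXCR4, the signalling receptor of CXCL12, was higher in undifferentiated tumors when all 51 were fitted. Its level was 8.66 (T9), 12.86 (T57), 9.83 (T73), 9.05 (T90) and 11.06 (LM0) in the reference undifferentiated tumors, and ranged from 7.5 through 9.07 to 11.14 in the reference differentiated ones. Only T57 exceeded the differentiated range. For unknown tumors the range was 8.66 through 10.96 to 11.67 for undifferentiated and 5.99 through 9.03 to 10.81 for differentiated tumors, with overlap. The log2 difference was 1.26 (SE 0.612, adjusted p = 0.229) in the reference tumors, 1.47 (SE 0.412, adjusted p = 0.029) in the unknown tumors and 1.39 (SE 0.346, adjusted p = 0.00397) in all tumors, from limma. Without T57 the value over all tumors was 1.16 and no longer passed (adjusted p = 0.0157, limma), and neither did the value with slide (1.27, 0.012) or scan day (1.29, 0.0102) as a fixed term. CXCR4 was higher in undifferentiated tumors on 9 of 10 slides and 7 of 7 scan days.

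CXCR7 binds CXCL12 without the usual G protein signal. It had differences of -0.78 (95% interval -1.75 to 0.18) and -0.45 (-1.44 to 0.55) in the reference and unknown tumors. Across 51 tumors CXCL12 had r = -0.27 and rho = -0.11 with CXCR4 (adjusted permutation p = 0.113 and 0.595) and r = 0.24 and rho = 0.23 with CXCR7 (0.154 and 0.175). Without T132 and T73 these r were -0.2 and 0.19. Within differentiated tumors alone, r between CXCL12 and CXCR4 was 0.33.

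CCL7, or MCP-3, attracts monocytes and eosinophils through CCR1, CCR2 and CCR3. Its levels in the reference undifferentiated tumors were 6.36 (T9), 10.26 (T57), 7.27 (T73), 6.88 (T90) and 7.89 (LM0), all well above background. In the 13 reference differentiated tumors it ranged from 1.76 through 2.65 to 6.5 (T62) and was well above background in 2. The groups overlapped only through T9 and T62. The log2 difference of 4.79 (SE 0.72, adjusted p = 0.000693, limma) was above that of IL8, whereas with normexp background correction it was 1.71 (adjusted p = 0.00272), below that of IL8 (2.66). Most differentiated values lay at background, so the size of the CCL7 difference is not well measured. The call was lost in the authors' normalized table (4.66, adjusted p = 0.0338) and with slide (3.66, 0.231) or scan day (4.64, 0.0179) as a fixed term. Leaving out each reference tumor in turn, LM0 included, gave CCL7 differences of 4.16 to 5.14, all of which passed (adjusted p from 0.000107 to 0.00295, limma).

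The unknown tumors overlapped more for CCL7. The 7 undifferentiated ones ranged from 1.75 (T80) through 7.1 to 10.72 (T114) and 6 of them were well above background, and the 26 differentiated ones ranged from 1.8 through 5.2 to 8.93 with 16 well above background. The difference of 2.09 (SE 0.958) did not pass (adjusted p = 0.221, limma). Over all tumors it was 3.16 (SE 0.687, adjusted p = 0.000933, limma), with 8 of 10 slides and 6 of 7 scan days in that direction. The interaction for CCL7 was 2.71 (SE 1.36, adjusted p = 0.378, limma).

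IL8, also called CXCL8, is the main attractant of neutrophils. Its brightest probe had a value on 44 arrays only, the other spots having been marked as outliers by the scanner software, so the IL8 probe shown above, with values on all 51, is described. It read 6.6 (T9), 17.32 (T57), 10.92 (T73), 7.33 (T90) and 10.93 (LM0) in the reference undifferentiated tumors, and 5.48 through 6.38 to 8.24 in the reference differentiated ones. T57, T73 and LM0 stood above the differentiated range, T9 and T90 inside it. The unknown undifferentiated tumors ranged from 7.21 (T77) through 11.86 to 16.83 (T114), and the unknown differentiated ones from 4.37 through 6.83 to 9.72. T49, T104, T114 and T132 stood above all differentiated tumors.

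The IL8 difference on this probe was 3.89 (SE 1.13, adjusted p = 0.0442) in the reference tumors, 4.48 (SE 0.836, adjusted p = 0.00107) in the unknown tumors and 4.25 (SE 0.678, adjusted p = 8.95e-06) in all tumors, the last being 19-fold, all from limma. The brightest IL8 probe gave 3.35 (SE 0.897, adjusted p = 0.035, 3 against 12 tumors), 4.56 (SE 1.02, adjusted p = 0.00724, 5 against 24) and 4.12 (SE 0.743, adjusted p = 9.83e-05, 8 against 36). The remaining IL8 probes gave 2.83 and 4.76 in the reference tumors and 5.01 and 5.64 in the unknown tumors. On the brightest probe the call in the unknown tumors was lost without T49 (adjusted p = 0.0271), T104 (0.0276) or T132 (0.0437). In the reference tumors IL8 passed without T90 (4.59, adjusted p = 0.0093). Without T114 the unknown call was lost as well (0.0129), but T114 had no value on that probe and the difference stayed at 4.56. The call in the unknown tumors was also lost with slide (7.01, adjusted p = 0.0157) or scan day (5.19, 0.0255) as a fixed term and with sex (3.9, 0.0352) or age (3.23, 0.114) as a term. The fits with sex or age also left out T132, whose sex and age were not recorded. The effect of these terms therefore cannot be told apart from the loss of T132. Over all tumors the difference with slide as a fixed term was 4.91 (adjusted p = 0.000289). IL8 was higher in undifferentiated tumors on 7 of 7 slides and 6 of 6 scan days on which both classes had a value.

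Neutrophil markers were read beside IL8. Of 8 listed neutrophil markers 4 had a probe, with a median difference of 3.1 in reference and 3.04 in unknown tumors, and none passed the limits in either set. S100A9, a calcium-binding protein abundant in neutrophils, was higher in undifferentiated tumors overall (4.01, adjusted p = 0.00132, limma), whereas LTF, a protein of neutrophil granules, gave -1.88 in the reference tumors and 1.01 in the unknown tumors (adjusted p = 0.231 and 0.581). The neutrophil score ranged from -0.98 through -0.18 to 1.49 in the reference undifferentiated tumors, from -1.17 through -0.28 to 0.94 in the reference differentiated, from -0.65 through 1.08 to 1.71 in the unknown undifferentiated and from -1.18 through -0.23 to 1.73 in the unknown differentiated ones. On the brightest probe IL8 and this score had r = 0.39 and rho = 0.29 over 44 tumors (adjusted permutation p = 0.0254 and 0.147), r was 0.26 without T104 and T132, and in the authors' table it was 0.62. The IL8 probe with 51 values, compared after the data were seen, gave r = 0.54 and rho = 0.4 (unadjusted permutation p = 5e-05 and 0.00337), and r was 0.4 without T114 and T57 and 0.31 within differentiated tumors. The part of neutrophils in the IL8 result was not tested. CXCL1, CXCL2, CXCL3, CXCL5 and CXCL6, other neutrophil attractants, had no probe under their names.

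CCL3, or MIP-1 alpha, attracts monocytes and lymphocytes through receptors that include CCR1. It read 4.3 (T9), 12.72 (T57), 7.31 (T73), 5.26 (T90) and 2.35 (LM0) in the reference undifferentiated tumors and 1.84 through 4.07 to 6.6 in the reference differentiated ones, with only T57 and T73 above the differentiated range. The unknown undifferentiated tumors ranged from 5.91 through 6.81 to 12.19 (T114), and the unknown differentiated ones from 1.9 through 5.27 to 7.83, where T49 and T114 stood apart. The log2 difference was 2.02 (SE 1.18, adjusted p = 0.321) in the reference, 2.76 (SE 0.664, adjusted p = 0.0108) in the unknown and 2.47 (SE 0.611, adjusted p = 0.00364) in all tumors, from limma. Without T57 the reference difference was 0.44 and without LM0 it was 3.03 (adjusted p = 0.8 and 0.144). Without T57 the value over all tumors was 1.93 and missed the limit (adjusted p = 0.0149), as did the value with slide as a fixed term (2.15, adjusted p = 0.033). CCL3 was higher in undifferentiated tumors on 8 of 10 slides and 6 of 7 scan days. Its probe was well above background on 34 of 51 arrays. A probe outside the naming rule, described as a fragment of CC chemokine ligand 3, was well above background on all 51. That probe went the other way, with -1.31 in the reference tumors (adjusted p = 0.0353) and -0.59 in all tumors (0.189, limma).

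**Figure D2:**
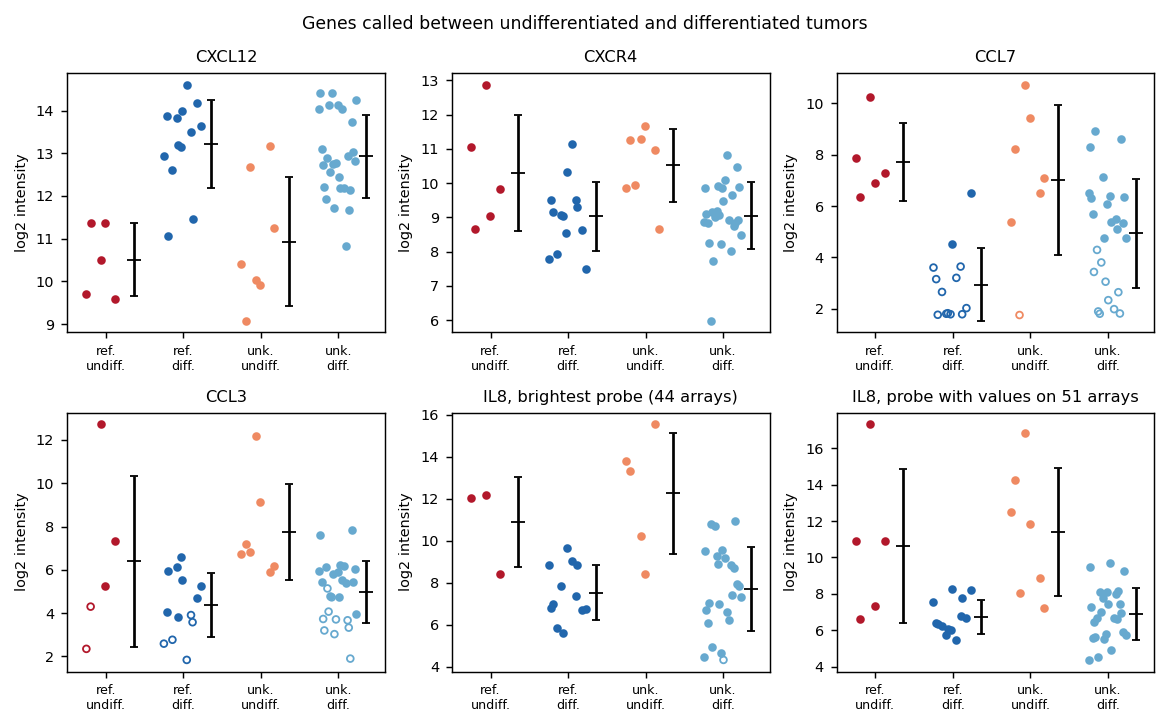
Log2 intensity per tumor (1 point per array, open where the probe was not well above background) with the mean and SD beside each group, for the 5 genes that passed the limits in any class comparison, IL8 with 2 probes. CXCL12 lies lower in undifferentiated tumors (9.59 to 11.37 against 11.06 to 14.6 in the reference tumors), whereas CCL7 lies at 6.36 to 10.26 against 1.76 to 6.5, and T57 is the highest point for CXCR4, for CCL3 and for the IL8 probe with values on 51 arrays.

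T57 had the highest level of the 51 tumors for more genes than any other tumor, 5 of the 37 (CCL13, CCL3, CCL4, CCR1 and CXCR4), and T49, an unknown undifferentiated tumor, was the highest for 4 (CCL1, CCL2, CCL8 and CX3CL1). LM0 was the lowest for 5 genes (CCL24, CCL4, CCL5, CX3CL1 and CXCL16).

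No other monocyte attractant passed the limits. CCL2, or MCP-1, the main ligand of CCR2, had a difference of 0.85 (adjusted p = 0.2) in the reference tumors, 1.27 (0.116) in the unknown tumors and 1.1 (0.0179) in all tumors, with values for 12 of 13 reference differentiated and 22 of 26 unknown differentiated tumors. CCL4, or MIP-1 beta, an attractant of monocytes, read 10.62, 14.54, 11.51, 9.29 and 6.66 in T9, T57, T73, T90 and LM0, against 6.85 through 8.99 to 9.72 in 12 reference differentiated tumors, 1 spot being missing. T9, T57 and T73 lay above the differentiated range and LM0 below it. The difference for CCL4 was 1.72 (SE 0.852, adjusted p = 0.239) there, 0.72 without T57 and 2.69 without LM0 (adjusted p = 0.56 and 0.0408), and 0.88 (SE 0.671, adjusted p = 0.543) in the unknown tumors. Of the 6 measured genes of this role (CCL2, CCL3, CCL4, CCL14, CCL16, CX3CL1), 5 were higher in undifferentiated tumors in each set, with medians of 0.73 and 0.53, and none passed the limits in either.

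Macrophage markers were set beside these attractants. Of 10 such markers on the array 3 were higher in undifferentiated reference tumors and 4 in undifferentiated unknown ones. CD14, a coreceptor for bacterial lipopolysaccharide, rose in the unknown tumors (1.64, adjusted p = 0.00116) and CSF1R, the receptor for macrophage colony-stimulating factor, fell in the reference tumors (-1.91, adjusted p = 0.00661, both from limma). The macrophage score had r = 0.13 and rho = 0.13 with CCL2 over 46 tumors (adjusted permutation p = 0.616 and 0.649) and r = 0.09 and rho = 0.07 with CCL7 over 51 (0.699 and 0.811). The part of macrophages in the CCL7 result was not tested.

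CCL1, a ligand of CCR8 that mast cells can secrete, had wide levels. It read 7.77 (T9), 12.72 (T57), 9.18 (T73), 8.94 (T90) and 11.4 (LM0) against 4.97 through 7.91 to 12.68, with complete overlap except at T57. The unknown tumors ranged from 7.61 through 10.87 to 14.77 and from 1.89 through 8.45 to 12.37. The differences of 1.61 (SE 1.21, adjusted p = 0.453) and 2.44 (SE 0.979, adjusted p = 0.148) did not pass.

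Of the 3 lymphoid tissue chemokines none passed the limits in either set. CCL19 and CCL21, ligands of CCR7, are made by lymphatic vessels and lymphoid stroma. CCL21 read 6.09 (T9), 10.98 (T57), 4.27 (T73), 7.15 (T90) and 4.5 (LM0) against 8.27 through 9.39 to 11.75 in 12 reference differentiated tumors, 1 spot being missing. Of the undifferentiated tumors only T57 lay inside the differentiated range. The difference of -3.34 (SE 0.897) had an adjusted p of 0.0322, and without T57 it passed the limits (-4.43, adjusted p = 0.00131, limma). The other CCL21 probe, well above background on 48 arrays and with r = 0.92 to this one, gave a smaller difference. It was -1.51 in the reference tumors (adjusted p = 0.137, limma). Among unknown tumors CCL21 ranged from 6.05 through 9.87 to 11.29 and from 2.02 through 9.48 to 11.74, with a difference of 0.61 (SE 0.961, adjusted p = 0.798). Its level correlated with the score of 8 endothelial markers with r = 0.43 and rho = 0.46 over 50 tumors (adjusted permutation p = 0.00733 and 0.00448), r being 0.36 without T51 and T73.

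CCL19 read 8.32 (T9), 4.62 (T57), 10.32 (T73), 9.66 (T90) and 4.98 (LM0) against 7.79 through 9.84 to 10.62, so T57 and LM0 lay below the differentiated range and the others inside it. The difference was -2.07 (SE 0.761, adjusted p = 0.107) in the reference tumors and -1.66 (SE 0.859, adjusted p = 0.298) in the unknown ones, where the undifferentiated tumors ranged from 2.14 (T49) through 9.03 to 10.66 and 24 differentiated ones from 5.19 through 9.81 to 12.02. CXCL13, the attractant of B cells to follicles, was well above background on 19 of 51 tumors and differed by 0.15 (SE 0.999) and -1.59 (SE 1.1), with adjusted p of 0.946 and 0.487. It read 3.48, 4.68, 6.02, 3.12 and 2.63 in T9, T57, T73, T90 and LM0, and up to 11.28 in T121, an unknown differentiated tumor.

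CXCL14 is a chemokine made constitutively in normal epithelium and skin. It read 13.64 (T9), 13.06 (T57), 13.02 (T73) and 13.91 (T90), the LM0 spot being missing, against 12.7 (T130) through 15.74 to 17.47 in the reference differentiated tumors, most of which lay higher. The difference of -2.38 (SE 0.66) had an adjusted p of 0.0368, and without T130 it passed (adjusted p = 0.00437, limma). In the unknown tumors, of which T49 and 2 differentiated ones had no value, CXCL14 ranged from 12.6 through 14.41 to 16.93 and from 13.34 through 15.57 to 17.95, and the difference of -0.77 (SE 0.579) did not pass (adjusted p = 0.536).

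CCL25, which draws cells to the gut and thymus through CCR9, was well above background on 13 of 51 tumors and read 6.03, 3.21, 5.46, 4.92 and 4.97 in T9, T57, T73, T90 and LM0 against 1.88 through 3.55 to 4.47. All but T57 lay above the differentiated range. The difference was 1.48 (SE 0.418, adjusted p = 0.0382) in the reference tumors and 0.03 (SE 0.328, adjusted p = 0.973) in the unknown ones. CCL20, a ligand of CCR6 made by inflamed epithelium, had differences of 1.38 (SE 1.16, adjusted p = 0.509) and 1.64 (SE 0.957, adjusted p = 0.379). CCL17, a ligand of CCR4 on Th2 cells, gave 0.57 (adjusted p = 0.647) and -0.17 (0.939). CCL27, made by keratinocytes, gave -1.01 (0.514) and -0.29 (0.892), all from limma.

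CXCL10, induced by interferon and read by CXCR3, differed by 0.79 (SE 1.14, adjusted p = 0.724) and -0.82 (SE 0.897, adjusted p = 0.702). It ranged from 1.76 (T114) through 5.82 to 7.98 in the unknown undifferentiated tumors and from 1.76 through 5.32 to 9.47 in the unknown differentiated ones, which overlapped fully. One of its other probes correlated with the brightest one with r = 0.09, and gave 1.53 (adjusted p = 0.0954) in the reference tumors. CXCL16, a membrane-bound ligand of CXCR6 on T cells, gave 0.07 and 0.29 (adjusted p = 0.929 and 0.587).

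The eosinophil attractants were a question of their own, because eosinophils accompany mast cell tumors. Of 8 listed attractants 7 had a probe (CCL5, CCL7, CCL8, CCL13, CCL24, CCL26 and CCL28), CCL11 having none under its name. In each set 5 of the 7 had higher means in undifferentiated tumors and 2 lower. The median difference was 0.22 in the reference tumors, where the median of all probes was 0.03, and 0.62 in the unknown tumors, where it was -0.04. CCL7 was the only one called, in the reference and in all tumors.

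CCL24 and CCL26, eotaxin-2 and eotaxin-3, bind CCR3. CCL24 read 13.31 (T9), 12.16 (T57), 10.89 (T73), 8.16 (T90) and 7.71 (LM0) in the reference undifferentiated tumors and 10.62 through 12.56 to 14.78 in 10 reference differentiated ones, 3 spots being missing. T90 and LM0 lay below the differentiated range and the other tumors inside it. The difference was -2.16 (SE 0.935, 95% interval -4.16 to -0.16, adjusted p = 0.18), and -1.48 without LM0 (adjusted p = 0.398). On the CCL24 probe shown above, with a value on every array, it was -2.15 (SE 0.817, adjusted p = 0.12). Among unknown tumors CCL24 ranged from 10.97 through 12.53 to 15.11 and from 9.39 through 12.88 to 15.72, which overlapped fully, with a difference of -0.02 (95% interval -1.41 to 1.37, adjusted p = 0.992).

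CCL26 had the largest SD of the probes that represent a gene. T9 read 9.35, while T57, T73, T90 and LM0 read 3.43, 4.25, 2.63 and 2.47, and 2 of these 5 were well above background. The reference differentiated tumors ranged from 2.01 through 2.38 to 11.78 (T84), with 4 of 13 well above background. The unknown undifferentiated tumors ranged from 2.06 through 3.04 to 6.92 and the unknown differentiated ones from 2.13 through 5.4 to 11.51 (T117), with 2 of 7 and 15 of 26 well above background. Each group held tumors well above background and tumors that were not. The differences of 0.22 (95% interval -3.05 to 3.49, adjusted p = 0.949) and -1.68 (-4.01 to 0.65, adjusted p = 0.477) did not pass.

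CCL5, or RANTES, attracts T cells and eosinophils. It read 10.97, 10.04, 12.01, 10.91 and 6.53 in T9, T57, T73, T90 and LM0 and 7.95 through 9.33 to 10.85 in the reference differentiated tumors. T9, T73 and T90 lay above the differentiated range, LM0 was the lowest of all 51, and the difference was 0.79 without a call (95% interval -0.62 to 2.19, adjusted p = 0.513). Without LM0 it was 1.68 (adjusted p = 0.0595). In the unknown tumors, where it ranged from 9.48 through 9.98 to 10.7 and from 7.46 through 9.55 to 12.4, it was 0.41 (-0.63 to 1.45, adjusted p = 0.741).

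CCL8 and CCL13, or MCP-2 and MCP-4, bind several receptors including CCR3. CCL8 read 12.58 (T9), 13.55 (T57), 10.73 (T90) and 10.8 (LM0), the T73 spot being missing, against 9.41 through 10.4 to 13.13, and the unknown tumors ranged from 10.99 through 12.27 to 14.92 and from 9.54 through 11.07 to 13.76. The differences were 1.23 (SE 0.607, adjusted p = 0.238) and 1.35 (SE 0.502, adjusted p = 0.112), and over all tumors 1.31 (SE 0.392, adjusted p = 0.0175), short of the limit. CCL13 read 8.26, 10.11, 7.5, 4.72 and 6.42 in T9, T57, T73, T90 and LM0 against 5.43 through 7.24 to 9.13, so T57 was above and T90 below all differentiated reference tumors. CCL13 in the unknown tumors ranged from 6.71 through 8.37 to 9.55 and from 5.12 through 7.37 to 9.97. Its differences were 0.16 (95% interval -1.22 to 1.55) and 0.62 (-0.31 to 1.54), with adjusted p of 0.908 and 0.526.

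CCL28, an epithelial chemokine that binds CCR10 and CCR3, was at background in most tumors, being well above it on 11 of 51. It read 1.6, 1.63, 3.76, 3.49 and 3.69 in T9, T57, T73, T90 and LM0 against 1.62 through 2.45 to 5.6, and in the unknown tumors 1.62 through 3.09 to 10.3 (T77) against 1.61 through 1.67 to 9.19 (T53). Single high tumors occurred in both unknown classes. The differences were -0.02 (95% interval -1.36 to 1.33, adjusted p = 0.992) and 1.9 (0.05 to 3.75, adjusted p = 0.248).

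CCR3, the receptor that eosinophils use for these ligands, read 10.94 (T9), 9.16 (T57), 11.79 (T73), 9.12 (T90) and 5.35 (LM0), against 4.95 (T62) through 10.08 to 12.24 in 12 reference differentiated tumors. The unknown tumors ranged from 7.09 through 9.83 to 11.79 and from 7.38 through 10.05 to 13.2 (T117). Every undifferentiated tumor lay inside the differentiated range of its set except T104 (7.09) and T77 (7.25), which lay just below it. The differences were -0.62 (95% interval -2.78 to 1.54, adjusted p = 0.76) and -0.76 (-2.09 to 0.58, adjusted p = 0.608). The reference difference turned to 0.36 without LM0 (adjusted p = 0.866), and to 0.36 and 1.74 with scan day and slide as a fixed term. The only listed eosinophil marker with a probe was IL5RA, the receptor chain for interleukin-5, which ranged from 5.07 to 10.14 over the 51 tumors.

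**Figure D3:**
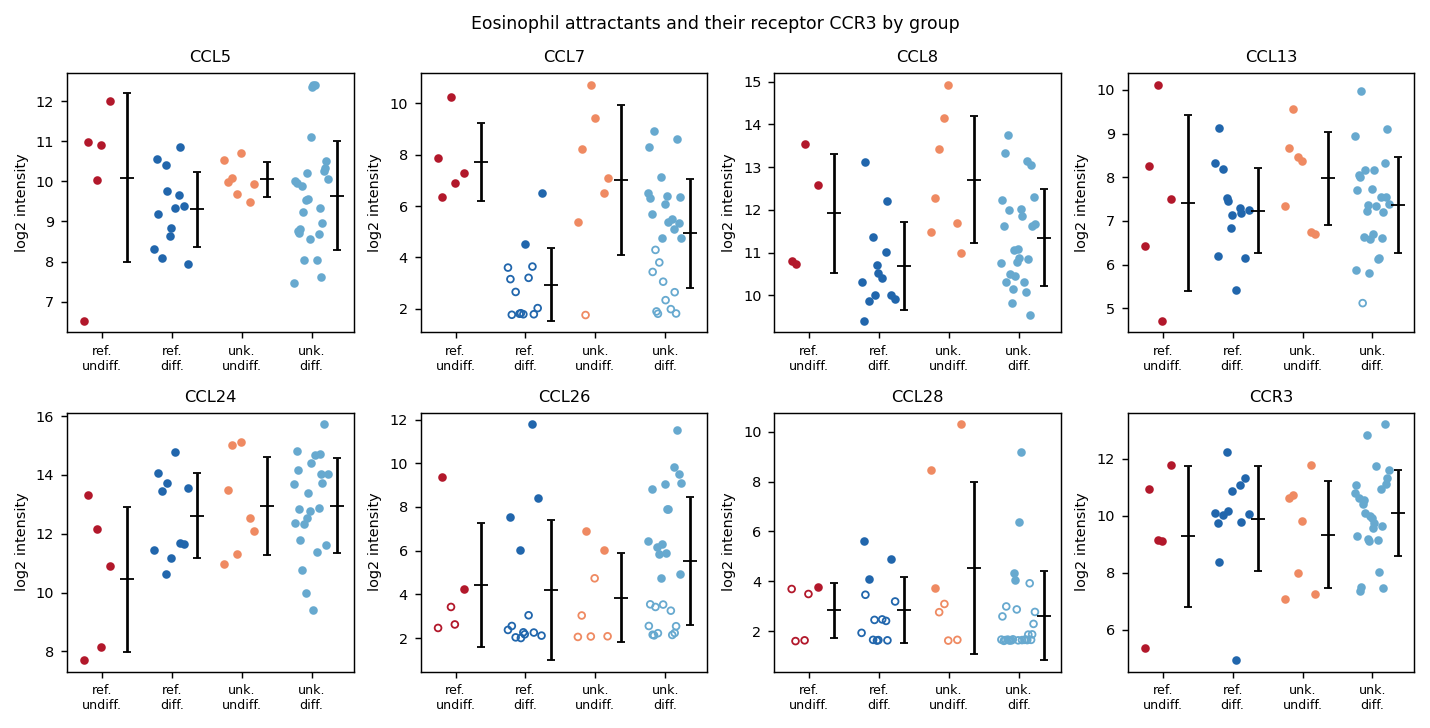
Log2 intensity per tumor (1 point per array, open where not well above background) with the mean and SD beside each group, for the 7 eosinophil attractants and for CCR3. CCL7 in the reference tumors lies at 6.36 to 10.26 in the undifferentiated against 1.76 to 6.5 in the differentiated class, which meet at T9 and T62. CCL26 has filled and open points in each group and runs from 2.01 to 11.78 over all tumors.

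No other receptor passed the limits. CCR1, read by CCL3, CCL5 and CCL7, had differences of 0.55 (SE 0.577, adjusted p = 0.615, 4 against 13 tumors) and 0.87 (SE 0.514, adjusted p = 0.388). The T cell receptors for chemokines CXCR3, CCR4, CCR6, CCR8 and CCR9 had medians of -0.03 and 0.01, and none passed the limits. CCR6, CCR7, CCR8 and CCR9 were well above background on 6, 1, 9 and 0 of the 51 arrays, so their levels were mostly not measurable here.

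Of the 37 genes 20 lay in groups with gaps of at most 500 kb. CCL1, CCL13, CCL8, CCL7 and CCL2 lay within 71.5 kb at chr9:42258387-42329921, and 5 of 5 were higher in undifferentiated tumors in both sets, with medians of 1.23 and 1.35. CCL4, CCL3, CCL14 and CCL5 lay within 142 kb at chr9:41001749-41144241, and 4 of 4 were higher in both sets, with medians of 1.25 and 0.65. Against these, CCL27, CCL19 and CCL21 lay within 40.3 kb at chr11:54364290-54404559, and 0 of 3 were higher in the reference tumors and 1 of 3 in the unknown tumors, with medians of -2.07 and -0.29. Most of the single genes in these groups did not pass the limits, and the neighbours were not tested as a set.

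Downstream of the receptors, 53 of 65 listed signalling genes had a probe. In the reference tumors 27 were higher and 26 lower, and 1 passed the limits (beside 1.8% of all probes), ARRB1 (-1.24, adjusted p = 0.000307, limma), which encodes a beta-arrestin that uncouples and internalizes receptors. In the unknown tumors 27 were higher and 26 lower and 0 passed. At an adjusted p under 0.05 with no fold limit, 1 was higher and 1 lower there (beside 5.53% of all probes), RAC1 (0.53, adjusted p = 0.0114), a small GTPase of cell migration, and GNG2 (-0.88, adjusted p = 0.0346), a G protein subunit. Over all tumors 8 were higher and 3 lower at that limit, 11 of 53 beside 13.8% of all probes. The median difference was 0.03 in reference and 0 in unknown tumors, beside 0.03 and -0.04 for all probes. Of the relatives outside the naming rule, DARC, a receptor of vessels and red cells that binds chemokines without signalling, was lower in undifferentiated tumors overall (-1.05, adjusted p = 0.00735, limma), and PPBP, a platelet chemokine that was well above background on 10 of 51 arrays, was higher (1.82, adjusted p = 0.0022).

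Across tumors, levels of ligands were compared with those of their receptors in 19 pairs, of which 8 reached an adjusted p under 0.05 (permutation test of Pearson's r with 1e+05 resamples, two-sided, Benjamini-Hochberg over the 19). CCL26 and CCR3 had the strongest relation, with r = 0.63 and rho = 0.66 over 50 tumors (adjusted p = 0.00019 for each, the smallest these permutations can give). It was 0.57 without T117 and T84, 0.62 within the 38 differentiated tumors and 0.69 after centring on slides. Many CCL26 values lay at background, and within the 23 tumors in which CCL26 was well above background r was 0.36. The median CCR3 level was 10.94 in those tumors and 9.3 in the other 27.

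CCL24 and CCR3 had r = 0.51 and rho = 0.44 over 45 tumors (adjusted permutation p = 0.00298 and 0.0142), r = 0.39 without LM0 and T90, 0.41 within differentiated tumors and 0.54 after centring on slides. CCL5 and CCR3 had r = 0.37 and rho = 0.28 (0.0309 and 0.121), and 0.29 without LM0 and T53. CCL28 and CCR3 ran opposite, with r = -0.34 and rho = -0.25 (0.048 and 0.152), and -0.16 within differentiated tumors, while CCL28 was at background in most of them. For the MCP-type attractants r with CCR3 was 0.12 for CCL8, 0.03 for CCL13 and -0.12 for CCL7 (adjusted p = 0.498, 0.885 and 0.498).

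Outside the eosinophil system, CCL3 and its receptor CCR1 varied together, with r = 0.57 and rho = 0.55 over 49 tumors (adjusted permutation p = 0.00038 and 0.000285), 0.47 without T114 and T57, 0.5 within differentiated tumors and 0.55 within the 32 tumors in which CCL3 was well above background. CCL21 and CCL19 had r = -0.46 and -0.35 with CCR7 (adjusted p = 0.0105 and 0.0484), but CCR7 was well above background on 1 of 51 arrays, so these relations concern values at background.

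Members were compared with marker scores in 39 pairs, of which 15 reached an adjusted p under 0.05 by the same test. CCR3 and IL5RA had r = 0.71 and rho = 0.65 (adjusted p = 0.00013 for each, the smallest these permutations can give), 0.65 without LM0 and T62, 0.71 within differentiated tumors and 0.71 after centring on slides. The ligands had lower r with IL5RA, a difference that was not tested. For CCL26 r was 0.39 and rho 0.42 (adjusted p = 0.0156 and 0.00803), for CCL5 r was 0.21 (0.28), for CCL24 0.09 (0.699), for CCL8 0.05 (0.85), for CCL7 -0.08 (0.699), for CCL13 -0.17 (0.416) and for CCL28 -0.42 (0.00733). With the score of 5 mast cell markers CCR3 had r = 0.18 and rho = 0.06 (adjusted p = 0.403 and 0.828). IL5RA stood alone for its cell type, so a relation with it is a relation with 1 probe.

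CCL5 followed the score of 5 T cell markers with r = 0.78 and rho = 0.8 over 51 tumors (adjusted permutation p = 0.00013 for each), 0.79 without LM0 and T53, 0.86 within differentiated tumors and 0.85 after centring on slides. CXCL10 had r = 0.54 and rho = 0.49 with the score of 12 interferon-stimulated genes (0.000325 and 0.00195), and 0.43 without T56 and T89. That list also counts IFNG, itself an interferon. IFNG, RSAD2 and ISG15 of the list were well above background on 0, 4 and 8 arrays. With the T cell score CXCL10 had r = 0.53 and rho = 0.57 (0.000334 and 0.00039). CXCL13 had r = 0.59 with 4 B cell markers but rho = 0.3 (0.000292 and 0.0981), and 0.39 without T117 and T121, so the linear relation rested in part on those tumors.

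CCL27, which binds CCR10 on skin-homing T cells, was read beside keratinocyte markers. Over 51 tumors CCL27 had r = 0.84 and rho = 0.79 with their score (adjusted permutation p = 0.00013 for each), the largest r of the 39 pairs. By the mean score of these markers the tumors fell into separate clusters, so the relation was also read within each. KRT10, KRT1, DSG1, DSG3 and TP63 were well above background on 30, 31, 29, 34 and 4 arrays. Low scores therefore rest in part on values at background. In the 26 tumors with a score above 0 (0.31 to 1.44, 7 of them undifferentiated) CCL27 ranged from 9.01 through 12.16 to 14.66 and had r = 0.62 and rho = 0.61 with the score. In the 25 tumors with a score below 0 (-1.05 to -0.17, 5 undifferentiated) CCL27 ranged from 8.31 through 8.93 to 10.31, with r = -0.21 and rho = -0.07. CCL27 values over 10.31 occurred only in tumors with a score above 0, and both clusters held tumors of both classes. The part of overlying epidermis in the CCL27 levels was not tested.

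**Figure D4:**
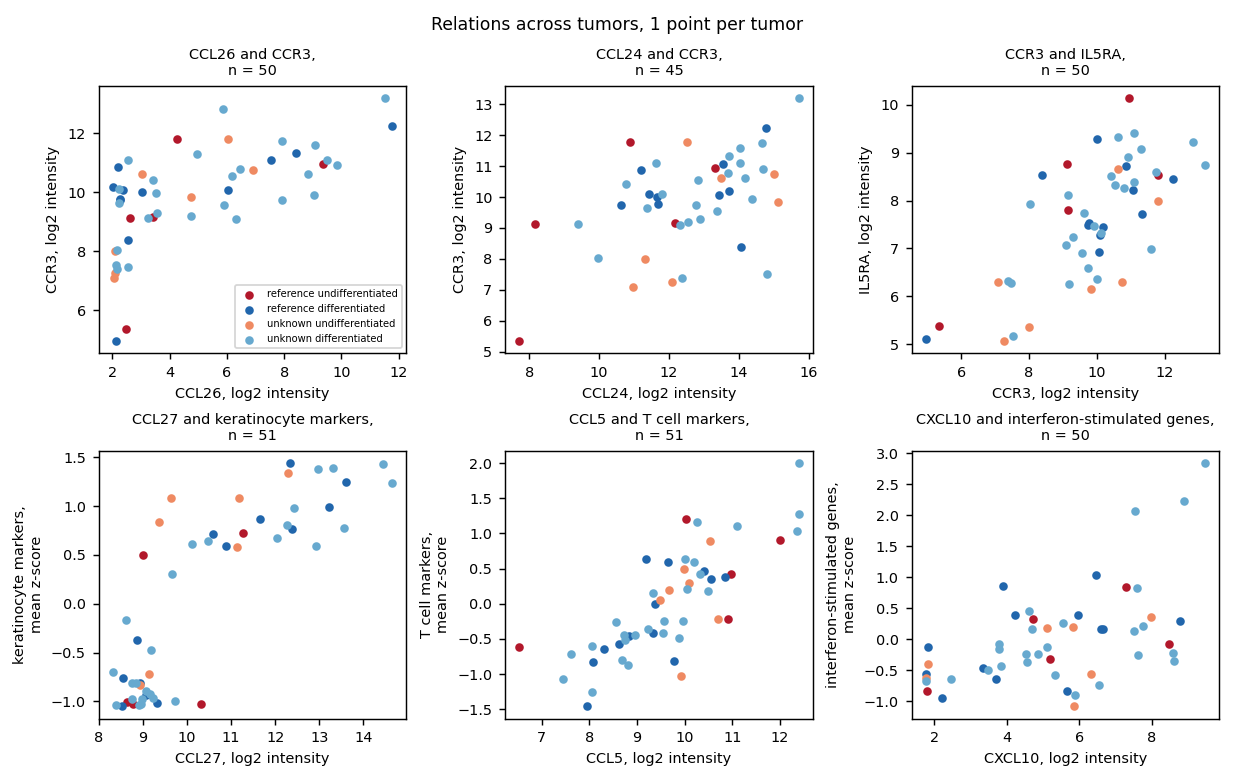
Each point is 1 tumor, coloured by group, with the log2 intensity of the named chemokine or receptor on the x axis and the log2 intensity of CCR3 or IL5RA, or the mean z-score of a marker list, on the y axis. Across tumors CCL26 and CCL24 vary with CCR3 (r = 0.63 and 0.51, with scatter that includes tumors high in CCL24 and low in CCR3), CCR3 follows IL5RA (r = 0.71), CCL5 follows T cell markers (r = 0.78), CXCL10 follows interferon-stimulated genes (r = 0.54), and CCL27 splits into a low group and a spread-out high group.

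The dogs' sex, breed and age were tested with tumor class in the model. For sex 0 of 37 genes passed the limits (limma, beside 0.0275% of all probes), and 1 had an unadjusted p under 0.05 (5.86% of all probes), CCL28, with a mean of 2.38 ± 0.883 (SD, n = 19) in males and 3.09 ± 2.16 (SD, n = 30) in females and an adjusted p of 0.793. Between 9 Boxers and 9 Labrador Retrievers 0 of 37 passed (limma, beside 0.0436% of all probes), and 3 had an unadjusted p under 0.05 (5.68%): CCL14, CCR6 and CXCR4, the last being 9.69 ± 0.846 (SD) against 9.02 ± 0.727 with an adjusted p of 0.528. For age 0 of 37 passed (limma, beside 0% of all probes), and CCL3 and CXCL14 had an unadjusted p under 0.05 (2.81%). None of the 5 genes called between the classes passed a limit for sex, breed or age.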

How the data were processed

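RNA of 51 tumors was amplified, labelled with Cy3 and hybridised to Agilent canine arrays, scanned at high and low sensitivity. Feature Extraction gave the authors one background-subtracted, detrended signal per spot, and the deposited values are intensities on a linear scale. The authors also deposited a table of quantile-normalized intensities, which has the same rank order as the scanner signals (Spearman 1), is unlogged, and lacks 2107 to 6290 values per array. Its column medians were 118 to 177.

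The scanner intensities were taken to log2, and values of outlier spots, of which an array had 718 to 3291, were removed. Values were then quantile normalized with limma 3.58.1 in R 4.3.3, and repeated spots were averaged. Differences were fitted with limma's moderated test over all probes, with Benjamini-Hochberg adjustment, and called at an adjusted p under 0.01 and 2-fold or more, limits close to those of the study, whose SAM test was not run. Each group was compared only within its own set, and the joint and interaction fits used all arrays. The scripts were tested on simulated data. The number of arrays limits the precision, and p-values measure the spread between tumors of different dogs.

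Tumor classes came from the study's lists of reference and classified tumors, joined through the case name in the labels, which do not give the class. Sex, breed and age came from the labels. The members and gene lists were chosen with earlier results of these data known. Marker scores are mean z-scores, with a member left out of its own list. Values are given for every eosinophil attractant, CCR3, every called gene and the 5 genes with the largest difference each way among those well above background on 5 or more arrays of the comparison. Gene names are those of the array's design, and of the 40 of 49 member probes that carry a RefSeq accession 30 were found in the RefSeq table. Alternatives changed normalization, background, flags, filter, probe choice, batch terms, covariates and test. Scan day as a block, feature flags only, leaving out T57 or LM0 over all tumors the IL8 probe with 51 values in relations, and relations within detected tumors or marker clusters were chosen after the data were seen. The results of 1 member gene are not reported here.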

Additional observations from a re-analysis of the deposited data

Results flagged for a closer look

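Among the 39 combinations of a gene and a group of 4 to 10 tumors that were examined for a single tumor far from the rest, 1 stood out: CCL26, an eosinophil attractant, in the reference undifferentiated tumors. T9 read 9.35 on the log2 scale and the other 4 tumors read 2.47 to 4.25, so the gap was 0.741 of the whole range of the 5 tumors (critical value 0.71). Chance alone marks about 1 in 20 such groups, and 1 of 39 is no more than that. T9 was also the reference undifferentiated tumor with the highest CCL24 (13.31), and its CCR3 level was 10.94. The cause was not tested.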

How the results depend on the processing

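Counts of called genes out of 37 moved by more than 1.5 times in these settings. In the reference tumors, where 2 genes were called, the authors' table gave 1 (CXCL12), an adjusted p under 0.05 with no fold limit gave 6, and slide or scan day as a fixed block gave 0. In the unknown tumors, where 2 were called, an adjusted p under 0.05 gave 4, slide as a fixed block 0, scan day as a fixed block 1 (CCL3), the methods' t-test 1 (CXCL12), the mean of all probes of a gene 1 (IL8), and sex or age as a term 0. The fits with sex or age left out T132, which had neither recorded, and both calls were also lost when T132 alone was left out. Over all tumors, with 5 called, an adjusted p under 0.05 gave 9 and slide as a fixed block 3 (CCL7, CXCL12 and IL8). Leaving out each tumor in turn gave 1 to 4 genes in the reference tumors and 0 to 3 in the unknown tumors, and leaving out LM0 or T57 gave 3 to 5 over all tumors. The reference fit with slide as a fixed block takes its class difference from T73 and T90 alone. T9, T57 and LM0 had no reference differentiated tumor on their slides. A call lost or a sign changed in that fit therefore cannot be told apart from the loss of these tumors. The cause of the lost calls was not tested. Of the differences of named genes recomputed in each comparison, 1744 kept their direction and side of the limit, 31 fell short of it, 25 newly passed it and 56 changed sign. The 56 sign changes, 31 of them with 1 tumor left out and 25 in other settings, lay in 10 genes, and none was of a called difference or passed the limits afterwards (lowest adjusted p 0.506, limma).

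The log2 differences that changed sign were these. CCL26 in the reference tumors (0.22) became -0.1 with normexp background correction, -1.37 with the authors' table, -0.58 with scan day as a fixed block and -1.01 without T9. CXCL13 in the reference tumors (0.15) became -0.11 with normexp background correction, -0.02 without T57, -0.02 without T62, -0.36 without T73 and -0.01 without T92. CCL28 in the reference tumors (-0.02) became 0.16 with slide as a random block, 1.53 with slide as a fixed block, 0.07 with the mean of all probes, 0.1 with sex as a term, 0.29 without T9, 0.16 without T48, 0.09 without T50, 0.29 without T57, 0.01 without T62, 0.21 without T88 and 0.04 without T130. CCL13 in the reference tumors (0.16) became -1.37 with slide as a fixed block, -0.05 without T9 and -0.51 without T57. CCL19 in the reference tumors (-2.07) became 0.82 with slide as a fixed block. CCR3 in the reference tumors (-0.62) became 1.74 with slide as a fixed block, 0.36 with scan day as a fixed block and 0.36 without LM0. CCL24 in the unknown tumors (-0.02) became 0.04 with 75th percentile scaling, 0.08 with the authors' table, 0.06 with flagged spots kept, 0.22 with the mean of all probes, 0.06 with feature flags only, 0.02 with sex as a term, 0.06 without T51, 0.01 without T56, 0.12 without T77, 0.03 without T89, 0.01 without T102, 0.3 without T104, 0.06 without T106, 0.03 without T107, 0.04 without T113, 0.25 without T114, 0.04 without T115, 0.1 without T117, 0.06 without T121 and 0.03 without T122. CCR7 in the unknown tumors (0.07) became -0.19 with the authors' table, -0.1 with flagged spots kept, -0.1 with feature flags only and -0.01 without T80. CCL21 in the unknown tumors (0.61) became -0.8 with slide as a fixed block and -0.35 with scan day as a fixed block. CCR7 in all tumors (0.13) became -0.1 with the authors' table. CXCL10 in all tumors (-0.18) became 0.32 with the mean of all probes and 0.09 without LM0.

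No paired analysis was possible because each tumor came from a different dog and belonged to a single class. The study's SAM test was not run. Probes at background in most tumors limit what can be said of CCR6, CCR7, CCR8, CCR9, CCL25, CCL26, CCL28 and CXCL13, and of CCL7 in the reference differentiated tumors.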
